A study of Mus musculus with 12 samples.

Results

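The 8 genes described here set how much translation initiation factor eIF2 is phosphorylated in a cell and how the cell responds to it. They were the eIF2 kinase genes Eif2ak2 (PKR), Eif2ak3 (PERK) and Eif2ak4 (GCN2), the phosphatase regulator genes Ppp1r15a (GADD34) and Ppp1r15b (CReP), the eIF2α subunit gene Eif2s1, and the eIF2B subunit genes Eif2b1 and Eif2b5. They were chosen by name, with earlier results of these data known, and all 8 were found among the 13190 genes of the deposited expression table. The data were 12 libraries of ribosome-associated mRNA from parvalbumin interneurons, the fast-spiking inhibitory neurons of the cortex, obtained from mouse brain cortex. All animals were PV-Cre k/+; RiboTag k/k on a C57BL/6 background, so the parvalbumin-driven Cre switches on an epitope-tagged ribosomal protein and the mRNA pulled down with tagged ribosomes is sequenced. The 4 groups of 3 biological replicates were wild type and Nptx2 KO mice, housed together or alone from weaning onward, for no less than 4 weeks. Single housing is the condition named social stress in the labels, and Nptx2 encodes a secreted neuronal pentraxin that gathers AMPA receptors at synapses onto these interneurons. Ages were not given beyond weaning and the weeks of housing.

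eIF2 is a GTPase that carries the initiator methionyl-tRNA to the ribosome, and eIF2B is the exchange factor that reloads it with GTP. Stress-activated kinases phosphorylate the α subunit of eIF2, which turns it into an inhibitor of eIF2B, so that most translation falls while a few mRNAs with upstream reading frames, Atf4 among them, are translated more. PPP1R15A, itself induced by stress, and the constitutive PPP1R15B bring protein phosphatase 1 to eIF2α and reverse the mark. In neurons this pathway, the integrated stress response, is known for its part in synaptic plasticity and memory. Phosphorylation was not measured, and the values below are levels of ribosome-associated mRNA.

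Libraries are named a, b and c within each group, in the order of the columns of the table, and the letters name no animal and pair no samples. All values are log2(FPKM + 1), in which FPKM is fragments per length of transcript and depth of library, so that levels can be compared between genes per length. The values were already quantile normalized, and any 2 libraries correlated at 0.981 to 0.987 over genes. The 10 markers listed for parvalbumin interneurons were Pvalb, Gad1, Gad2, Slc32a1, Kcnc1, Kcnc2, Lhx6, Sox6, Erbb4 and Syt2. Of these, Gad1, Gad2 and Slc32a1 mark inhibitory neurons in general, and Gad1, at a mean of 10.6, stood above Pvalb, at 9.99. The 10 summed to 3568 to 3902 FPKM per library. Sums were 126 to 179 for 7 detected excitatory neuron markers, 147 to 177 for 8 astrocyte markers, 80.4 to 113 for 8 oligodendrocyte markers and 35.3 to 51.3 for 8 microglia markers. Fewer cells of a type and less RNA per cell cannot be told apart in such pooled material. Nptx2 itself stood at 2.62, 2.34 and 2.31 in group-housed wild type and at 2.37, 2.74 and 2.62 in group-housed KO. The values were 2.41, 2.41 and 2.23 in single-housed wild type, against 2.68, 2.43 and 2.54 in single-housed KO. The libraries labelled KO did not have less of it, and the sources used here do not give the deleted part of the gene, so this level does not check the label.

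Per length, the eIF2B and eIF2α subunit genes were the highest of the 8 and the kinase gene Eif2ak2 the lowest. Over the 12 libraries the mean was 4.88 (28.4 FPKM) for Eif2b5, 4.21 (17.5 FPKM) for Eif2s1, 4.18 (17.1 FPKM) for Eif2b1 and 3.68 (11.9 FPKM) for Ppp1r15b. It was 3.13 (7.75 FPKM) for Eif2ak3, 3.01 (7.06 FPKM) for Eif2ak4, 2.79 (6.08 FPKM) for Ppp1r15a and 0.87 (0.84 FPKM) for Eif2ak2. Neighbours in this order were apart in every library except in 3 places. Eif2s1 and Eif2b1 were each the higher in 6 of 12 libraries, Eif2ak3 was above Eif2ak4 in 11, and Eif2ak4 was above Ppp1r15a in 8. The fourth eIF2 kinase gene, Eif2ak1 (HRI), which is not among the 8, was higher than the other kinases at 4.95 (30.1 FPKM). The catalytic subunit gene Ppp1ca, whose protein both phosphatase regulators recruit, stood at 7.03 (130 FPKM).

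**Figure D1:**
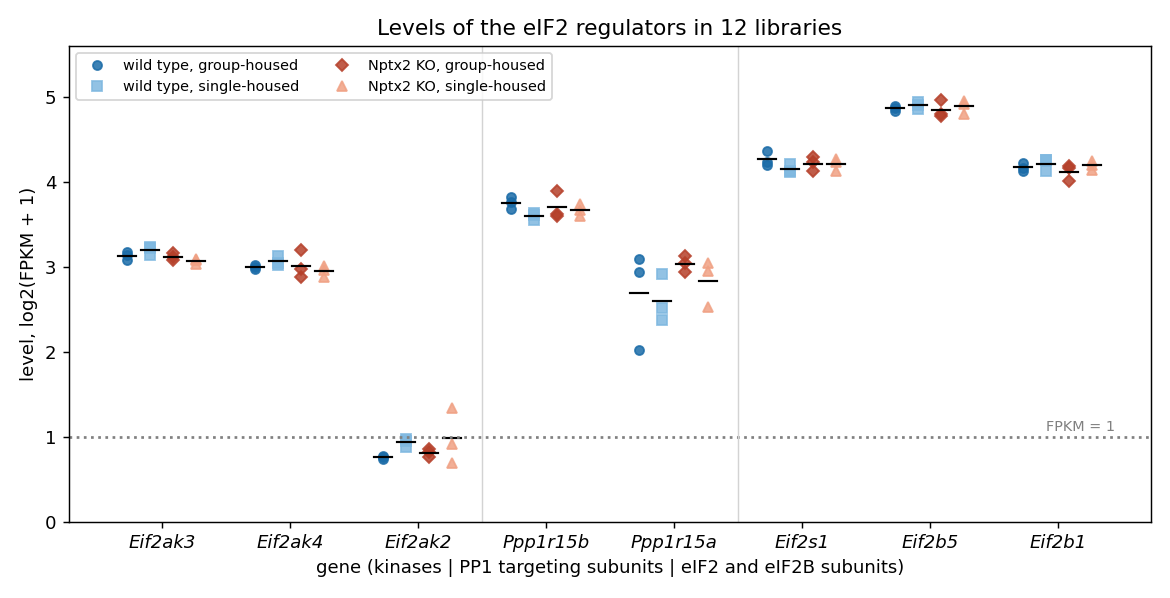
Level of the 8 genes in log2(FPKM + 1) on the vertical axis in each of the 12 libraries, by group, with the dotted line at an FPKM of 1. Eif2ak2 lies near or under the line, Ppp1r15a spreads over 1.10, and Eif2ak3 and Eif2b5 spread over 0.20 and 0.19.

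The kinase genes were described first. Eif2ak3 lies at chr6:70844515-70905245 on the plus strand of GRCm38 and encodes the endoplasmic reticulum kinase that senses unfolded proteins. It stood at 3.17, 3.08 and 3.14 in group-housed wild type, 3.08, 3.11 and 3.16 in group-housed KO, 3.14, 3.22 and 3.23 in single-housed wild type, and then 3.09, 3.08 and 3.04 in single-housed KO. The single-housed KO libraries were all below the single-housed wild-type libraries, and the other groups overlapped. The residual SD of Eif2ak3 within groups was 0.04, lower than in all but 3.0% of the 12716 tested genes, against a median of 0.11.

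Eif2ak4 lies at chr2:118388618-118475234 on the plus strand and encodes the kinase that senses uncharged tRNA when amino acids run short. It stood at 2.97, 3.03 and 3.0 in group-housed wild type, 2.88, 2.98 and 3.19 in group-housed KO, 3.13, 3.03 and 3.04 in single-housed wild type, and then 2.88, 3.0 and 2.97 in single-housed KO. The single-housed wild-type libraries were above the other wild-type libraries and above the single-housed KO libraries, though narrowly, while group-housed KO spanned all of them.

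Eif2ak2 lies at chr17:78852564-78882573 on the minus strand and encodes the kinase that binds double-stranded RNA; it is an interferon-induced gene. It stood at 0.76, 0.77 and 0.74 in group-housed wild type, 0.86, 0.76 and 0.82 in group-housed KO, 0.88, 0.95 and 0.97 in single-housed wild type, and then 1.34, 0.69 and 0.91 in single-housed KO. The single-housed wild-type libraries were all above the group-housed ones, and both extremes of the 12 were in single-housed KO. Only 1 library reached an FPKM of 1, at 1.53, so the gene did not enter the main test. With a minimum FPKM of 0.5, chosen after its values were seen, the difference in log2(FPKM + 1) between single and group housing was 0.18 ± 0.13 (SE) in wild type (limma adjusted p = 0.616) and 0.17 in KO (limma adjusted p = 0.994).

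**Figure D2:**
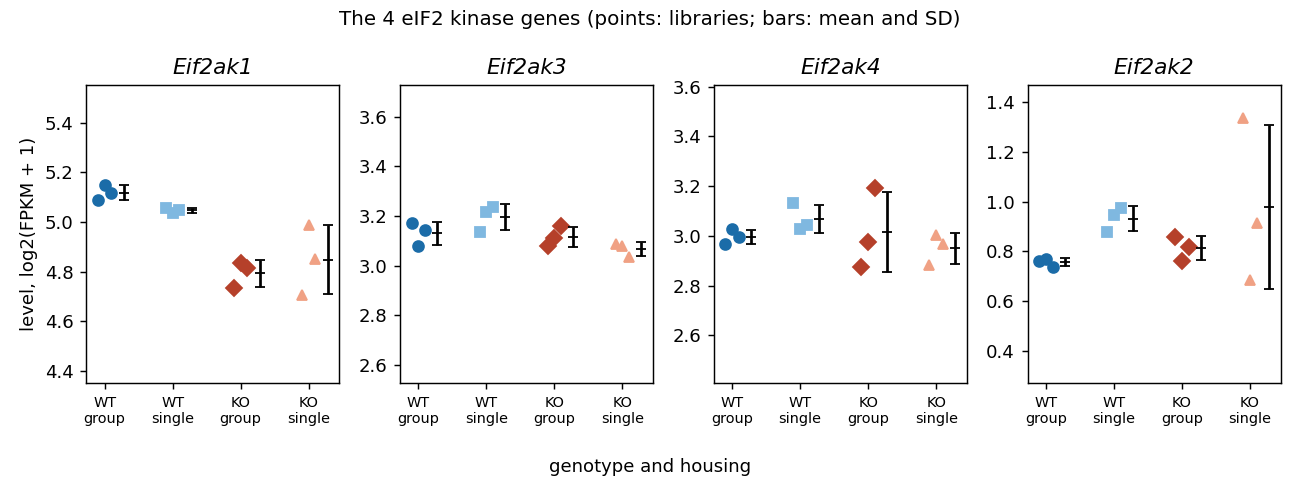
Level of the eIF2 kinase genes Eif2ak1, Eif2ak3, Eif2ak4 and Eif2ak2 in log2(FPKM + 1) by group, with points for libraries and bars for mean and SD (n = 3). Eif2ak1 means were 5.12 and 5.05 in wild type and 4.79 and 4.85 in KO, while the means of Eif2ak3 lay between 3.07 and 3.20.

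Of the 2 phosphatase regulator genes, the stress-induced one varied most. Ppp1r15a lies at chr7:45522916-45526268 on the minus strand and overlaps Tulp2 on the opposite strand. The library kit was stranded, and no source used here says whether the counting used strand. Ppp1r15a stood at 2.94, 2.03 and 3.10 in group-housed wild type, 3.12, 2.94 and 3.04 in group-housed KO, 2.51, 2.91 and 2.37 in single-housed wild type, and then 2.95, 2.52 and 3.04 in single-housed KO. Libraries at 2.52 or less appeared in 3 of the 4 groups, group-housed KO being the exception, and the groups overlapped in every comparison. The range of 1.10 over the 12 libraries exceeded that of 91.5% of tested genes.

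Ppp1r15b lies at chr1:133131143-133139783 on the plus strand and encodes the regulator that acts without stress. It stood at 3.68, 3.77 and 3.82 in group-housed wild type, 3.89, 3.63 and 3.60 in group-housed KO, 3.55, 3.63 and 3.61 in single-housed wild type, and then 3.59, 3.67 and 3.74 in single-housed KO. The single-housed wild-type libraries were all below the group-housed ones, and the KO groups overlapped with each other and with wild type. The highest value was in library a of group-housed KO.

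The substrate and exchange factor genes were steady. Eif2s1 lies at chr12:78861819-78887010 on the plus strand and encodes the subunit that carries the phosphorylated serine. It stood at 4.20, 4.24 and 4.36 in group-housed wild type, 4.29, 4.13 and 4.23 in group-housed KO, 4.21, 4.13 and 4.12 in single-housed wild type, and then 4.13, 4.24 and 4.27 in single-housed KO. Each pair of groups overlapped.

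Eif2b1, at chr5:124570213-124579131 on the minus strand, encodes the α subunit of eIF2B, part of its regulatory core, which binds phosphorylated eIF2. Its group means were 4.17 ± 0.05 (SD, n = 3) in group-housed wild type, 4.12 ± 0.09 in group-housed KO, 4.21 ± 0.08 in single-housed wild type, and then 4.20 ± 0.05 in single-housed KO. Eif2b5, at chr16:20498817-20509323 on the plus strand, encodes the catalytic ε subunit, mutated in human vanishing white matter disease. Its means were 4.87 ± 0.03, 4.85 ± 0.10, 4.90 ± 0.04 and 4.89 ± 0.08 in the same order. For both genes the groups overlapped in every comparison, and the libraries of Eif2b5 lay between 4.77 and 4.96.

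Promoter windows are shown for Ppp1r15a and Eif2ak2, the member that varied most and the one near the detection limit. Each window runs from 250 bases before to 50 after the annotated start, on the gene's own strand, with sequences from RefSeq on GRCm38.p6. Windows were found for 7 of the 8 genes, Ppp1r15b being the one without. Capitals mark matches on either strand to the interferon-stimulated response element core GAAANNGAAA, held by 3.43% of 32817 promoters, and to the cAMP response element TGACGTCA, held by 1.79% and added to the search after the Ppp1r15a sequence was seen.
Ppp1r15a, chr7:45526219-45526518, minus strand: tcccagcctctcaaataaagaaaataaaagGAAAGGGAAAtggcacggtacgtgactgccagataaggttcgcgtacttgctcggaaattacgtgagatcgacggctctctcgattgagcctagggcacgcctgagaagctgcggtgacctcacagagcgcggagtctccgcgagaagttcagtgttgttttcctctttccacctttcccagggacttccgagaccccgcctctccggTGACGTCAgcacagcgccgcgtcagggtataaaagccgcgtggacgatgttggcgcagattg
Eif2ak2, chr17:78882523-78882822, minus strand: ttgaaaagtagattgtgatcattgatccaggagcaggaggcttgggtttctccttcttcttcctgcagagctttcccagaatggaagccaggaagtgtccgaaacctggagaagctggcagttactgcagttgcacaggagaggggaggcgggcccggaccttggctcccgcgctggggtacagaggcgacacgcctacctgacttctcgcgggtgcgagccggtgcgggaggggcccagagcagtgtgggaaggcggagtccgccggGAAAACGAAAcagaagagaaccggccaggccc
The Ppp1r15a window holds 1 match to each of these motifs, the cAMP response element starting 12 bases before the start site. The Eif2ak2 match, GAAAACGAAA, begins 18 bases after the start site. Eif2s1 also holds a match to the interferon motif, 212 bases before its RefSeq start. Its window begins at chr12:78861822, so that match lies inside the gene as GENCODE places it. The C/EBP-ATF response element TGATGNAA, the composite site bound by ATF4, occurred in 3.97% of all promoters. In the ATF4 list described below, 12 of 29 genes held it in any of their windows, a count by gene rather than by promoter. No member window held it, nor the ER stress element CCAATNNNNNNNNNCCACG, which 0.119% of promoters hold. Such matches describe letters only.

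Upstream start codons, through which some mRNAs escape the block on initiation, were counted on 1 GENCODE M21 transcript per gene. Ppp1r15a and Ppp1r15b each had 3, all opening reading frames that closed before the main start codon. At least 1 such frame, a looser mark than 3, was found in 42.5% of 11360 genes. The stretch before the main start codon was 283 bases long in Ppp1r15a and 604 in Ppp1r15b, against a median of 173 over these genes. Eif2ak3 had 3 upstream start codons and Eif2s1 had 2, each with 1 closed frame, and Eif2ak2 had 1 with no closed frame, while Eif2ak4, Eif2b1 and Eif2b5 had no upstream start codon, which 50.5% of the 11360 genes have. Since these libraries are of ribosome-associated mRNA without a library of input RNA, a change in mRNA level and one in ribosome loading cannot be told apart.

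Single against group housing in wild type compares animals with Nptx2 that were housed alone or together. All single-housed wild-type libraries held Y-linked signal and no group-housed one did, as described last. Housing and this signal therefore cannot be told apart here. None of the 7 tested genes passed limma's threshold of an adjusted p of 0.05, against 0.0393% of all tested genes, and the lowest adjusted p was 0.453. At an unadjusted limma p under 0.05 there were also 0 of the 7, against 12.3% of all tested genes. The difference was -0.16 ± 0.08 (SE) for Ppp1r15b (95% interval -0.33 to 0.02, limma adjusted p = 0.453) and -0.12 ± 0.06 for Eif2s1 (95% interval -0.26 to 0.03, limma adjusted p = 0.486). Differences of the kinase genes were 0.07 ± 0.08 for Eif2ak4 and 0.06 ± 0.05 for Eif2ak3. The groups did not overlap for 2 of the 7, Ppp1r15b and Eif2ak4, against 21.9% of all tested genes. Ppp1r15a differed by -0.09 ± 0.26, with an interval of -0.67 to 0.49 that leaves room for changes in either direction. Library b of group-housed wild type decides that value, which is -0.42 without it.

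In KO animals single housing gave no call either. None of the 7 genes passed, against 0.00786% of all tested genes, and the lowest limma adjusted p was 0.995. At an unadjusted limma p under 0.05 there were 0 of the 7, against 4.36% of all tested genes. The groups overlapped for all 7 genes, while 6.8% of tested genes did not overlap. Differences were -0.20 ± 0.26 (SE) for Ppp1r15a (95% interval -0.77 to 0.38) and 0.08 ± 0.06 for Eif2b1.

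KO against wild type asks what the loss of Nptx2 does in each housing condition. In group housing none of the 7 genes passed, as 0% of all tested genes did, and 3.66% of all genes but none of the 7 had an unadjusted limma p under 0.05. No member's groups stood apart, against 7.01% of all tested genes. Ppp1r15a differed by 0.35 ± 0.26 (SE; 95% interval -0.23 to 0.92, limma adjusted p = 1), and by 0.02 without library b of group-housed wild type.

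In single housing none of the 7 genes passed, against 0.0393% of all tested genes. Eif2ak3 was the 1 member with an unadjusted p under 0.05, against 7.93% of all tested genes. Its difference, KO minus wild type, was -0.13 ± 0.05 (SE; 95% interval -0.24 to -0.02, limma adjusted p = 0.621). All 3 single-housed KO libraries were the lower ones. In the authors' deposited table the same comparison, written there as wild type minus KO, has a log2 difference of 0.13 and an adjusted limma p of 0.632. Eif2ak4 differed by -0.12 ± 0.08 (95% interval -0.29 to 0.06, limma adjusted p = 0.712). These were the 2 members whose groups did not overlap, against 15.8% of all tested genes.

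Whether housing acted differently in the 2 genotypes was tested as an interaction. None of the 7 genes passed, against 0.00786% of all tested genes, and the lowest limma adjusted p was 0.712. An unadjusted limma p under 0.05 was found for 0 of the 7 and for 7.71% of all tested genes. The interaction was -0.11 ± 0.07 (SE) for Eif2ak3, -0.14 ± 0.11 for Eif2ak4, 0.11 ± 0.11 for Ppp1r15b and 0.11 ± 0.09 for Eif2s1. The comparisons share groups, so a high or low group enters more than 1 of them.

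**Figure D3:**
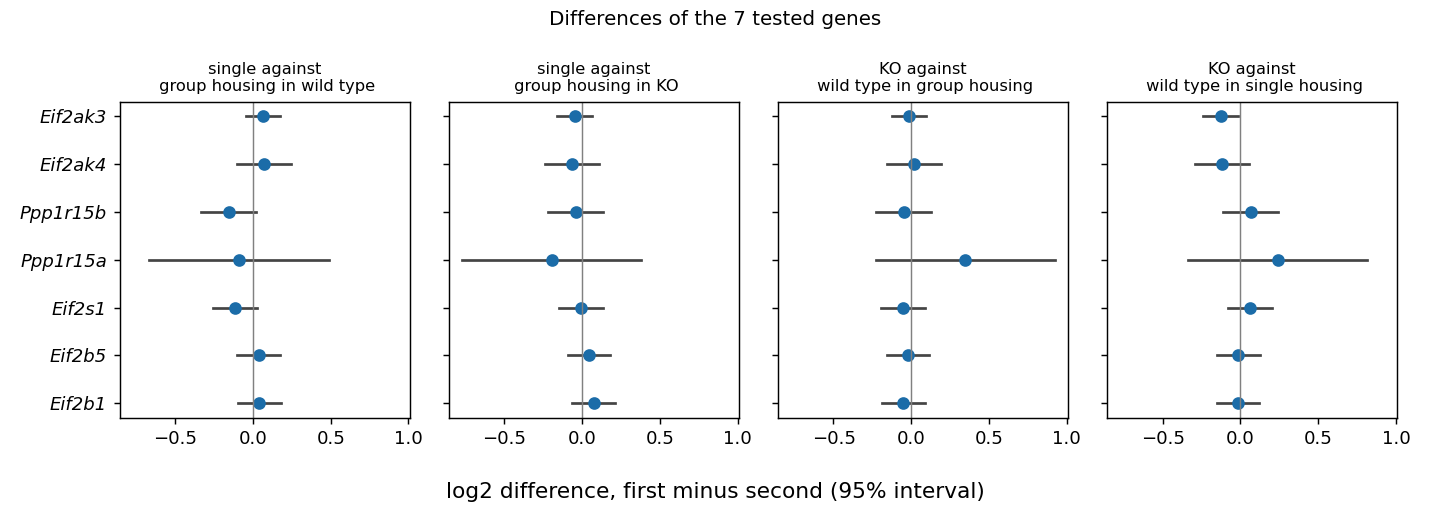
Difference in log2(FPKM + 1) of the 7 tested genes in the 4 comparisons of housing or genotype, with points for the limma estimate and bars for its 95% interval. The interval of Eif2ak3 for KO against wild type in single housing, -0.24 to -0.02, lies below 0 before adjustment, and those of Ppp1r15a are the widest.

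Other genes of the pathway gave no call in any comparison. The lists held 7 other eIF2, eIF2B and eIF5 genes, 11 tested kinase and phosphatase partners, 5 genes of alternative initiation, 31 tested of 34 listed genes of ATF4 and its targets, 7 tested of 24 interferon response genes, and 5 tested of 6 other ER stress sensor genes. In wild-type housing an unadjusted limma p under 0.05 was found for 3 subunit genes, among them Eif2s3x and Eif2s3y, which went with the Y-linked signal. It was also found for 3 partners, 2 genes of alternative initiation, 3 of the ATF4 list, 1 interferon gene and 1 ER stress sensor gene, against 12.3% of all tested genes. In KO housing it was found for 4 of the 7 subunit genes, 1 interferon gene and none of the other 4 lists, against 4.36% of all tested genes. Those 4 were Eif2s3x and Eif2s3y, which are described last, Eif2b4, at 0.51 ± 0.17 (SE), and Eif2s2, at 0.28 ± 0.10, each with a limma adjusted p of 0.995. In KO against wild type and the interaction, each list had at most 3 such genes. In group housing no list had more than 1, against 3.66% of all tested genes. In single housing they included 3 of 11 partners and 2 of 5 genes of alternative initiation, against 7.93%. The interaction had 2 of 7 subunit genes, 2 of 5 of alternative initiation, 2 of 7 interferon genes, 2 of 31 of the ATF4 list and 1 of 11 partners, against 7.71%. For single against group housing in wild type the median difference was 0.14 over the subunit genes, -0.07 over the partners, -0.07 over alternative initiation, -0.49 over the ATF4 list, -0.05 over the interferon genes and -0.01 over the ER stress sensors. It was 0.00 over all tested genes. Among the partners, Impact, which restrains GCN2, differed by -0.19 ± 0.06 (SE; limma adjusted p = 0.275) and Dnajc3, an inhibitor of PERK and PKR, by -0.25 ± 0.08 in the wild-type housing comparison. Tarbp2, also a partner, had means of 3.21 in group-housed and 2.95 in single-housed wild type. It stood at 3.21, 2.91 and 2.80 in single-housed KO. In the alternative initiation list, Eif2d, which can deliver tRNA to the ribosome without eIF2, differed by 0.29 ± 0.06 (limma adjusted p = 0.194) and Denr by 0.17 ± 0.05. For KO against wild type in single housing the differences were 0.24 ± 0.08 for Dnajc3, -0.22 ± 0.06 for Eif2d and -0.18 ± 0.05 for Denr, each with a limma adjusted p of at least 0.567.

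Eif2ak1, the heme-regulated kinase that also relays mitochondrial stress, was the kinase gene whose values followed genotype. It stood at 5.09, 5.15 and 5.12 in group-housed wild type, 5.06, 5.04 and 5.05 in single-housed wild type, 4.73, 4.83 and 4.81 in group-housed KO and 4.71, 4.99 and 4.85 in single-housed KO. All 6 libraries labelled KO were below all 6 wild-type libraries, which held for 0.22% of tested genes in either direction and for none of the 7 tested members. KO minus wild type was -0.32 ± 0.06 (SE) in group housing (limma adjusted p = 0.791) and -0.20 ± 0.06 in single housing (limma adjusted p = 0.567). The average of both, a comparison added after these values were seen, was -0.26 ± 0.05 (95% interval -0.36 to -0.16, limma adjusted p = 0.199), while 0.0393% of all tested genes passed and 3.8% had an unadjusted limma p under 0.05. None of the 7 members met either mark in that comparison. Without library b of single-housed KO the average was -0.30 with a limma adjusted p of 0.0393. Eif2ak1 lies at chr5:143817788-143904251, 641651 bases from Nptx2 on the same chromosome, and overlaps Aimp2 and Ankrd61 on the opposite strand. The part of that position in the difference was not tested.

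ATF4 and its targets, the transcripts that rise when eIF2α is phosphorylated, split the libraries in a way that groups do not describe. The mean deviation of the 31 tested genes from their mean was 0.355 to 0.559 in 5 libraries and -0.354 to -0.277 in the other 7. The 5 were libraries b and c of group-housed wild type, library a of group-housed KO and libraries b and c of single-housed KO, and none was single-housed wild type. Atf4 itself, which is 1 of the 31 genes and so enters the score, stood at 8.23 to 8.46 in the 5 and at 7.34 to 7.59 in the other 7. The list's median difference was -0.49 for single against group housing in wild type, with 28 of 31 genes lower (49% of all tested genes were), and 0.45 for KO against wild type in single housing, with 29 of 31 higher (also 49% of all tested genes). The medians over all tested genes were 0.00 in both, and no gene of the list passed the limma threshold in either.

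The members lay along this split unequally. The 5 libraries were the 5 highest for Eif2s1, a pattern found in 2.76% of tested genes. The margin was narrow, at 4.236 to 4.364 against at most 4.231, with a residual SD within groups of 0.07. The pattern held for 26 of the 31 ATF4 genes, but the 5 libraries were picked by the values of these same genes. No other tested member showed it. Among the other eIF2 genes, Eif2s2, which encodes the β subunit, showed it too. For Ppp1r15b, 4 of the 5 libraries were its 4 highest, and library b of single-housed KO, at 3.67, fell just under library a of group-housed wild type, at 3.68. Ppp1r15a, a target of ATF4 in other cells, did not follow the split: library b of group-housed wild type was its lowest at 2.03 and library a of group-housed KO its highest at 3.12. These are descriptions over libraries sorted by their own values, with no test.

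**Figure D4:**
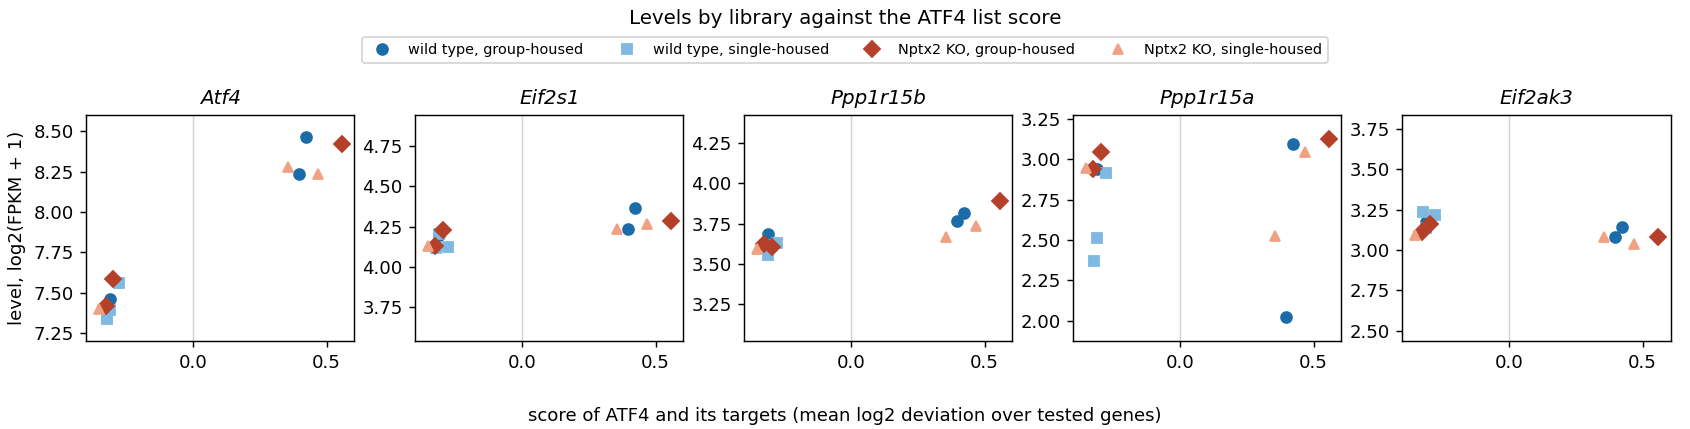
Level of Atf4, Eif2s1, Ppp1r15b, Ppp1r15a and Eif2ak3 in log2(FPKM + 1) on the vertical axes against the mean deviation of 31 genes of ATF4 and its targets on the horizontal axis, 1 point per library. The 5 libraries on the right are the 5 highest for Eif2s1 and for Atf4, which is 1 of the 31 genes. Ppp1r15a has its lowest and its highest library among the 5.

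The 3 tested genes most like each member over the 12 libraries were listed by Pearson's r, as a description. For Ppp1r15b they were Atf3 (0.950), a stress-induced transcription factor on the ATF4 list that stood at only 0.25 to 1.36 FPKM, Map7d2 (0.939) and Mthfd1l (0.936). For Eif2s1 they were Gdi2 (0.931), Suco (0.929) and Hs3st1 (0.927), and for Ppp1r15a Fitm2 (0.899), Mir6236 (0.897) and Ppp1r14b (0.888). For Eif2ak4 they were Scaf1 (0.961), Cs (0.954) and Eif4a-ps4 (0.938), and for Eif2ak3 Ppm1k (0.892), Trmt10c (0.880) and Atp13a3 (0.870). Eif2b1 was nearest to Zbtb45 (0.939), Ltbp3 (0.902) and Tctn2 (0.834), and Eif2b5 to Ccbl1 (0.900), Mobp (0.859) and Srp72 (0.851). No other member was among the nearest 3 of any.

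The eIF2 subunit that binds the tRNA, eIF2γ, is encoded by the paralogs Eif2s3x and Eif2s3y, on the X and Y chromosomes. Eif2s3y was listed at 0 in 7 libraries, the 6 group-housed ones and library a of single-housed KO, and stood at 8.20 to 9.36 FPKM in the other 5. Eif2s3x stood at 55.0 to 63.4 FPKM in the 7 and at 36.4 to 38.4 FPKM in the 5, so that the sum of both was 45.1 to 47.5 FPKM in the 5. Single minus group housing in wild type was -0.68 ± 0.12 (SE) for Eif2s3x in log2(FPKM + 1), with a limma adjusted p of 0.193, and 0.0457 when the fit held only the groups compared. The 2 genes are close in sequence and can share reads, so the split of reads between them is uncertain. The Y-linked genes Ddx3y and Kdm5d followed the same libraries. Together with Eif2s3y they summed to 17.8 to 21.5 FPKM in the 5 and to at most 0.02 FPKM in the 7. The labels do not give the sex of the animals. The Y-linked signal, counted from Eif2s3y and Ddx3y, was present in 3 of 3 single-housed wild-type and 2 of 3 single-housed KO libraries. It was present in none of the group-housed ones. In wild type, housing and this signal cannot be told apart. Housing in KO, KO against wild type in single housing and the interaction also compare groups that differ in it. With a term for the signal, none of the 7 members passed the limma threshold in any comparison. That term rests on single-housed KO alone, on library a against b and c, so this fit cannot separate housing from the signal in wild type.

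**Figure D5:**
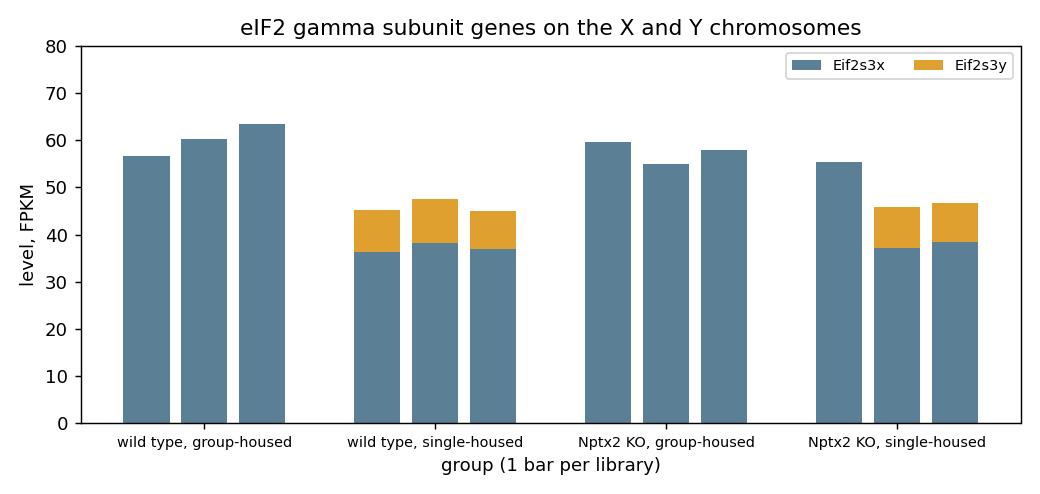
FPKM of Eif2s3x and Eif2s3y, stacked, in each of the 12 libraries by group. Eif2s3y is listed at 0 in 7 libraries and lies between 8.20 and 9.36 FPKM in 5, where Eif2s3x is at 36.4 to 38.4 FPKM against 55.0 to 63.4 FPKM.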

How the data were processed

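Ribosome-associated mRNA was sequenced in 12 libraries. The authors deposited 1 table of log2(FPKM + 1) values per gene and library. The submitters' processing notes name the tools HISAT2, StringTie and limma and the build GRCm38, with versions not given in the sources used here. The p-values, log2 differences and score columns (moderated t and F) of the authors' own comparisons stand in a separate deposited table. The scores were not used. Repeating quantile normalization moved no deposited value by more than 0.00883. Reads per library are not known, so no counting interval could be given. Identical libraries numbered 0. Columns carry no replicate numbers.

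A gene was tested where 3 or more libraries reached an FPKM of 1, which left 12716 of 13190. Means of the 4 groups were fitted to all 12 libraries with limma 3.58.1 in R 4.3.3 (eBayes with its trend option; residual degrees of freedom 8, prior 2.18) in 5 comparisons. The p-values were adjusted by Benjamini-Hochberg over all tested genes, at a threshold of 0.05. A comparison of the genotypes averaged over housing was added later. Differences are in log2(FPKM + 1), so changes of low genes are understated, and intervals are 95% and unadjusted. The p-values measure the spread between replicates that the labels call biological.

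The members and lists were chosen with earlier results of these data known. Besides the members, genes named from each list were those past the threshold and then those with the smallest p, up to 4 per list and comparison; for each member the 3 genes with the highest Pearson r were named. The script was tested on simulated data. Gene positions are from GENCODE M21 on GRCm38, and promoters from RefSeq. Alternatives varied the filter, pseudocount, variance model, samples, scaling and Y-linked signal and left out each library.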

Additional observations from a re-analysis of the deposited data

How the results depend on the processing

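The count of members past the limma threshold was 0 in all 94 recomputed counts, over 20 settings and all comparisons. Of 658 recomputed member differences, 0 passed and 47 had the opposite sign. For Ppp1r15a, single minus group housing in wild type ranged from -0.42 to 0.11 and KO minus wild type in group housing from 0.02 to 0.55. For Ppp1r15b, single minus group housing in wild type ranged from -0.26 to -0.12. Of 6138 recomputed differences of other genes named or listed, 5 passed. They were Eif2ak1 averaged over housing without library b of single-housed KO, and Eif2s3x and Eif2s3y in wild-type housing with only the groups compared and in KO housing without library a of single-housed KO, where Eif2s3x differed by -0.59 (limma adjusted p = 0.00549). For Eif2ak1 averaged over housing the adjusted p ranged from 0.0393 to 0.467. Counts over all tested genes, 5 and 1 for housing in wild type and KO, 0 and 5 for KO against wild type in group and single housing and 1 for the interaction, moved more. In the same order they were 24, 17, 1, 9 and 1 with a term for Y-linked signal, and 8, 16, 8 and 9 for the first 4 with only the groups compared. At an FPKM of at least 5 they were 2, 1, 0, 2 and 1, and 3 in place of 5 for genotype averaged over housing. A pseudocount of 0.1 gave 2 for KO housing and 0 for the interaction, which was also 0 with no variance trend. Leaving out 1 library gave 2 to 9 for wild-type housing, 2 to 6 for KO housing, 0 to 11 and 5 to 9 for KO against wild type in group and single housing, 0 to 8 for the interaction and 4 to 12 for genotype averaged over housing. The minimum FPKM of 0.5 and the averaged comparison were chosen after seeing the data. No paired analysis was possible because the columns of the table carry no replicate numbers. With 3 libraries per group, a missed threshold does not show that levels were equal, and the depth is unknown.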

Other observations

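Hspa5, the ER chaperone BiP that holds PERK inactive, spanned 4.95 to 7.0 log2(FPKM + 1) over the 12 libraries, a wider range than in 98.0% of tested genes. It stood at 6.43, 5.52 and 5.50 in group-housed wild type, 5.66, 5.53 and 7.0 in group-housed KO, 5.53, 5.61 and 5.45 in single-housed wild type and 4.95, 5.61 and 6.33 in single-housed KO. The high libraries came from 3 groups, and 1 of the 3 highest was among the 5 libraries high for ATF4 targets. Eif2ak3, the kinase it binds, stood at 3.04 to 3.17 in these 3 libraries.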
